A study of Mus musculus with 8 samples.

Results

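Transcripts of fatty acid oxidation and lipid storage genes were compared between muscle fibres, muscle stem cells and the endothelium of mouse skeletal muscle. The module holds 49 genes named by symbol, and all 49 were found among the 36048 genes of the deposited table. Single muscle fibres (SMF, n = 3, replicates 1 to 3) were taken from the extensor digitorum longus (EDL), left for 3 h so that damaged fibres contracted, and 100 intact fibres were picked by hand for each library. Satellite cells (SC, n = 2, replicates 1 and 3) are the stem cells of muscle, and endothelial cells (EC, n = 3, replicates 1 to 3) line its vessels. Both came from the hindlimb, and each of their libraries holds about 100000 cells collected by FACS. The sources used here give no treatment, genotype, strain, age or sorting marker for any group. Population, source muscle and isolation differ together and cannot be told apart. Whether each replicate was another animal is not in the labels. The p-values therefore measure library-to-library spread, some of which may be technical.

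Fatty acids are burned in mitochondria. They are first joined to coenzyme A by acyl-CoA synthetases, then passed across the mitochondrial membranes as carnitine esters by the CPT1, carrier and CPT2 steps, and cut in rounds of dehydrogenation, hydration, oxidation and thiolysis, whose electrons leave through the electron transfer flavoprotein. CPT1 is held in check by malonyl-CoA. Surplus fatty acids are stored as triglyceride in lipid droplets, which are coated by perilipins and emptied by a chain of lipases. Many of these steps have several isoenzymes made by separate genes, and skeletal muscle and heart are known for the muscle forms CPT1B and ACC2 (Acacb) and for the uncoupling protein UCP3.

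Levels are given as FPKM, which divides fragments by library size and by a length for the gene or transcript. In bulk samples such as these, fewer cells of a type and less RNA per cell cannot be told apart. From the deposited coverage, libraries held 525.5 to 580.8 Mb in SMF, 277.9 to 312.9 Mb in SC and 297.8 to 367.8 Mb in EC. A single fragment on a 1 kb transcript was therefore worth 0.172 to 0.190 FPKM in SMF, 0.320 to 0.360 in SC and 0.272 to 0.336 in EC, and levels of that order rest on very few fragments. Each population was highest in its own markers, summed over 10 genes each. Fibre markers reached 31664 to 34281 FPKM in SMF, 173 and 277 in SC and 11.1 to 20.0 in EC. Satellite cell markers were at 333.3 to 379.2 in SMF, nearly all of it Des (313.1 to 354.4), which fibres also make, at 1062 and 1116 in SC and at 18.7 to 25.1 in EC. Endothelial markers were at 4.13 to 4.98 in SMF, 25.2 and 19.0 in SC and 1354 to 1392 in EC. Among the EC libraries, replicate 2 lay below both others in 29 of the 41 module genes with a mean EC level of at least 1 FPKM (70.7%), against 49% of all tested genes, and also in all 8 pericyte and smooth muscle markers and all 5 erythroid markers. The part of these other cells in the results was not tested.

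The promoters of 5 genes are shown because they belong to the pairs and switches that the results turn on. Ucp3 and Ucp2 are neighbours, Hadha and Hadhb are read in opposite directions from a shared stretch, Cpt1a is the form of CPT1 that was nearly absent from fibres, and Acadm is a much studied oxidation gene. Each sequence is the 250 bases before a RefSeq start of the gene in GRCm38.p6 (the assembly named mm10), read 5′ to 3′ on the gene's own strand. Capitals mark a letter match to CAGCTG, the E-box preferred by myogenic factors, or, in Acadm, to AAGGTCA, the site of estrogen-related receptors, here on the other strand.
Ucp3, chr7:100472741-100472990, plus strand: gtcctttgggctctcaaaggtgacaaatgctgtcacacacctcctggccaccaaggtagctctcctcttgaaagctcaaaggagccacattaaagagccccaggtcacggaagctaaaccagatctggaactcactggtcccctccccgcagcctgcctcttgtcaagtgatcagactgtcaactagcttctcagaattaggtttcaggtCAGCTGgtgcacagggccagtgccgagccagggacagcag
Ucp2, chr7:100493108-100493357, plus strand: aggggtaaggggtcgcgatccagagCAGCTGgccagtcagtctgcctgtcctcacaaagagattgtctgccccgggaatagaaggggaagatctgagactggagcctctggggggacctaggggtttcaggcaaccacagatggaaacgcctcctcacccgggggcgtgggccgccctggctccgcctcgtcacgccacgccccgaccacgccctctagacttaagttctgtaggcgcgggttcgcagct
Cpt1a, chr19:3323051-3323300, plus strand: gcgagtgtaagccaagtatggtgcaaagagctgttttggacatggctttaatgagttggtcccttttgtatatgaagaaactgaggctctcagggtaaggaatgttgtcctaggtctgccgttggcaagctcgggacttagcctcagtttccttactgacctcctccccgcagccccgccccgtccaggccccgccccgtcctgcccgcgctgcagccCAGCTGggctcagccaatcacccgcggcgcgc
Acadm, chr3:153944644-153944893, minus strand: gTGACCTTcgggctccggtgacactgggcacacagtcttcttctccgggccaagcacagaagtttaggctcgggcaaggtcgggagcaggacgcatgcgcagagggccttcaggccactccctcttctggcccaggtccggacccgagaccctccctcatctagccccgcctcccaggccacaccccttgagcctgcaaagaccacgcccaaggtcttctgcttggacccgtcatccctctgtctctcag
Hadha, chr5:30154981-30155230, minus strand: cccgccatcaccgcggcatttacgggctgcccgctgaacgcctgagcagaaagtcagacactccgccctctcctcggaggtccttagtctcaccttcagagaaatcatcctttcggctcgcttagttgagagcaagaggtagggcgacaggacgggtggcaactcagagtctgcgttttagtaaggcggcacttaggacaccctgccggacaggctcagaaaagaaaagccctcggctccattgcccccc
Both strands were searched, and RefSeq promoters were found for 41 of the 49 genes (47 promoters). CAGCTG was present in 10 of these 47 (21.3%), against 13% of all 32851 promoters, and in promoters of genes called higher in fibres (Ucp3, Acsl1, Acsl6) as well as lower in fibres (Cpt1a, Ucp2, and Acsl4, which turns to higher under the median-of-ratios scaling). AAGGTCA was present in 2 (4.26%), those of Acadm and Acsl6, against 4.08% of all promoters. The direct repeat known from PPAR targets (AGGNCA, any 1 base, AGGNCA) and the MEF2 motif (CTA, any 4 bases, TAG) were in 0 of the 47, against 0.338% and 3.2% of all promoters, which says only that these letters are not in these windows.

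Fibres had higher levels of many oxidation genes and a different choice of isoenzymes. The summed level of all 49 genes, storage genes included, was 354.8 to 443.6 FPKM in SMF, against 243.1 and 276.0 in SC and 237.7 to 307.3 in EC. Acot13, a thioesterase, alone gave 72.6 to 85.7 FPKM of this sum in SMF, 16.3 and 17.0 in SC and 9.06 to 14.5 in EC. Much of the difference in the sum therefore rests on this gene. A filter of 1 FPKM in at least 2 libraries left 46 genes for testing, and Cpt1c, Ehhadh and Plin5 did not pass. Cpt1b, Acsl6 and Ucp3 passed only through SMF libraries, Acot1 only through SC and Dgat2 only through EC. A call of such a gene as higher in that group partly follows from the filter. By limma on log2(FPKM + 1), called at an adjusted p under 0.05 over all 16700 tested genes, 19 of the 46 were higher and 12 lower in SMF than in SC, while 8.57% of all tested genes were higher and 56.5% lower. Against EC, 21 were higher and 13 lower in SMF, with 10.8% of all tested genes higher and 55.5% lower. The median log2 difference of the 46 genes was 0.21 for SMF minus SC and 0.33 for SMF minus EC, against medians of -0.93 and -0.85 over all tested genes. The most abundant RNAs shift these values. With median-of-ratios scaling the medians over all genes were -0.21 and -0.19, and the calls became 31 higher and 8 lower in SMF in either comparison. With that scaling 22.5% of all tested genes were higher and 27.4% lower in SMF than in SC, and 24.9% were higher and 31.8% lower in SMF than in EC.

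Both comparisons share the SMF libraries, and 16 genes were called higher and 9 lower in SMF in each of them, where 7.12% and 43% of all tested genes were. The 16 were Cpt1b, Cpt2, Crat, Acacb, Mlycd, Acsl1, Acsl6, Acot13, Acadvl, Acadm, Hadha, Hadh, Decr1, Etfb, Ucp3 and Plin4. Of these, Cpt1b, Acsl6 and Ucp3 passed the filter only through SMF. The 9 were Cpt1a, Slc22a5, Acaca, Acsl4, Acsl5, Ucp2, Lipe, Plin3 and Dgat1, of which Acsl4 turned to higher in SMF under median-of-ratios scaling. In 18 of the 49 genes every SMF library lay above every other library (8.42% of all tested genes did), in 7 every SC library did (25.9%), and in 4 every EC library did (20.8%). The 18 include Cpt1b, Acsl6 and Ucp3, and the 7 include Acot1, which passed the filter only through that group. Cpt1c, also among the 7, did not pass it, while the shares cover only genes that did. Between SC and EC, 10 of 46 genes were higher and 7 lower in SC (21.7% and 15.2%). These shares are near the 21.2% and 16.4% of all tested genes and do not set the module apart. The 10 were Cpt1a, Acsl3, Acot1, Acadvl, Acadsb, Hadh, Echs1, Eci1, Etfa and Plin3, and the 7 were Acacb, Acsl1, Acsl5, Acaa2, Pnpla2, Lipe and Mgll. Among the 10, Acot1 passed the filter only through SC. Leaving out a single library ended the calls of Cpt1a (SC replicate 3), Acsl1 (SC replicate 1), Acadvl (SC replicate 1, EC replicate 1 or 2), Acadsb (either SC library or EC replicate 1) and Acaa2 (either SC library, EC replicate 1 or 3), with limma adjusted p between 0.0512 and 0.136. Without SC replicate 3, 6 genes were higher in SC.

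**Figure D1:**
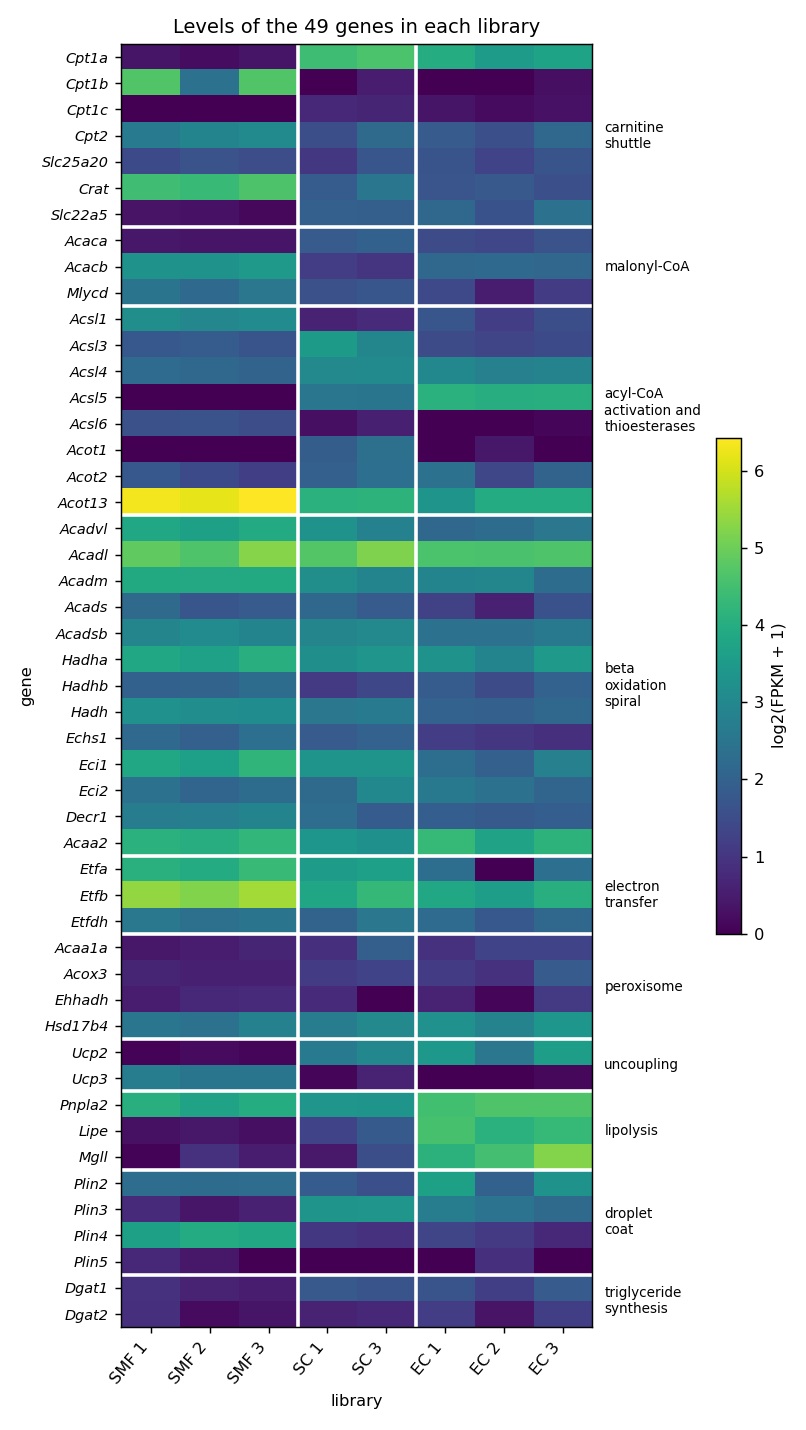
Levels of the 49 genes, one row for each gene in the order of its role, in the 8 libraries, as log2(FPKM + 1) by colour. Cpt1b, Acsl1, Acot13, Ucp3 and Plin4 are brighter in the 3 SMF columns than in the others, whereas Cpt1a, Acsl5, Ucp2, Lipe and Mgll are dark there.

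At the entry of fatty acids into mitochondria, fibres carried another isoenzyme than the other populations in the deposited gene table. Cpt1b (chr15:89416405-89425862), the muscle form of CPT1, had 24.6, 4.28 and 25.0 FPKM in SMF, 0 and 0.41 in SC, and 0, 0 and 0.20 in EC. SMF replicate 2 was low among the fibres, yet its value was above all SC and EC libraries. Cpt1a (chr19:3322326-3385735), the liver form used in most tissues, had 0.29, 0.16 and 0.28 FPKM in SMF, 20.6 and 23.4 in SC, and 14.9, 10.8 and 12.4 in EC. It was 90.1-fold lower in SMF than in SC and 52.0-fold lower than in EC (log2 -4.21 ± 0.17 and -3.45 ± 0.15, SE; limma adjusted p = 1.74e-06 and 7.66e-07), ratios that rest on few fragments in SMF. SMF did not overlap SC or EC in either gene, and Cpt1a also stood above EC in both SC libraries. Cpt1b made up 98.0 ± 1.43% of the summed FPKM of the 3 CPT1 genes in SMF, 0.831 ± 1.18% in SC and 0.511 ± 0.886% in EC (SD, n = 3, 2 and 3). An exact permutation test of this share over the 560 ways to form groups of these sizes gave p = 0.025, or 0.0375 adjusted over 6 families. Leaving out any SMF library or SC replicate 3 leaves 7 libraries and took the adjusted exact p to between 0.0686 and 0.1. Cpt1c, the form of the brain, was listed at 0 in every SMF library and stayed at or under 0.66 FPKM in SC and 0.28 in EC.

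The TPM table, which sums assembled loci carrying the symbol, showed Cpt1b less sharply, at 24.0, 12.8 and 20.0 TPM in SMF, 4.33 and 17.5 in SC and 2.51, 3.88 and 5.80 in EC. On that table the call of SMF against SC was lost (log2 0.96, limma adjusted p = 0.121). The Cpt1b share of CPT1 was 99.15% in SMF, 35.3% in SC and 30.2% in EC on TPM, against 98.0%, 0.831% and 0.511% on FPKM (exact permutation p adjusted over 6 families 0.0257 on TPM). The borders of the TPM locus are not given, and whether it takes in reads of the neighbouring choline kinase gene Chkb was not tested. Chkb has no entry of its own in the TPM table. The listed Cpt1b transcript ENSMUST00000109313 had 28.2, 4.70 and 28.8 FPKM in SMF and 0 in every SC and EC library. In the gene table Chkb, named after its values were seen, had 0.66, 9.003 and 0.73 FPKM in SMF, 2.35 and 4.23 in SC and 1.40, 1.20 and 2.499 in EC. It was highest in SMF replicate 2, the fibre library with the least Cpt1b. Further along the shuttle, Crat, the carnitine acetyltransferase that buffers acetyl-CoA, had 20.9, 19.7 and 23.8 FPKM in SMF, 2.66 and 4.72 in SC and 2.25, 2.46 and 1.96 in EC. That is 5.81-fold above SC and 9.65-fold above EC (log2 2.29 ± 0.21 and 2.80 ± 0.19; limma adjusted p = 5.16e-05 and 6.80e-06). Cpt2, which turns carnitine esters back to CoA esters inside the mitochondrion, had 5.28, 6.51 and 7.33 FPKM in SMF, 1.91 and 3.70 in SC and 2.60, 1.96 and 3.51 in EC. All SMF libraries lay above the others. It was higher in SMF by a log2 of 0.98 ± 0.27 than in SC and 1.01 ± 0.24 than in EC, and the first call was lost without SC replicate 1 (limma adjusted p = 0.0952). The carrier between these steps, Slc25a20, had 1.70 to 2.12 FPKM in SMF, 1.07 and 2.33 in SC and 1.46 to 2.17 in EC. The 95% intervals of the difference were -0.39 to 0.68 against SC and -0.49 to 0.48 against EC, and under median-of-ratios scaling Slc25a20 was called higher in SMF by 1.20 and 0.98. Slc22a5, the plasma membrane carnitine transporter OCTN2, had 0.27, 0.24 and 0.11 FPKM in SMF, 2.90 and 2.87 in SC and 3.54, 2.05 and 4.40 in EC, and was called lower in SMF than in both (log2 -1.69 ± 0.24 and -1.81 ± 0.22).

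**Figure D2:**
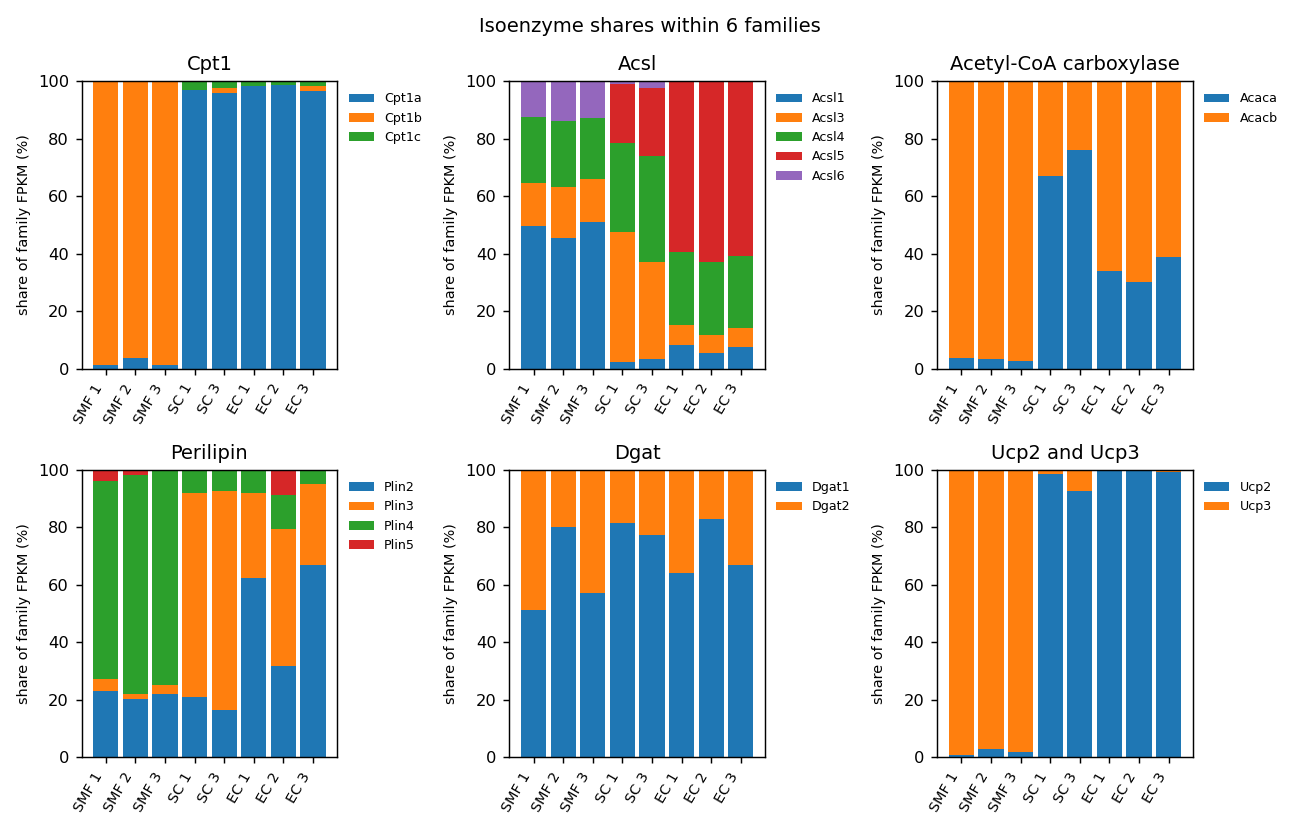
Share of each isoenzyme in the summed FPKM of its family (percent, bars to 100) in each library, for CPT1, long-chain acyl-CoA synthetases, acetyl-CoA carboxylases, perilipins, diacylglycerol acyltransferases and uncoupling proteins. Cpt1b and Ucp3 fill nearly the whole bar in the SMF libraries (at least 96.4% and 97.2%) and at most 1.66% and 7.49% in SC and EC.

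The enzymes that set malonyl-CoA, the inhibitor of CPT1, also differed in their mix. Acacb encodes the acetyl-CoA carboxylase at the mitochondrial surface and had 8.71, 8.86 and 10.2 FPKM in SMF, 1.27 and 0.94 in SC and 3.47, 3.60 and 3.35 in EC. Acaca, the cytosolic carboxylase of fatty acid synthesis, had 0.33, 0.29 and 0.28 FPKM in SMF, 2.57 and 3.02 in SC and 1.79, 1.56 and 2.11 in EC. Neither gene overlapped between SMF and the other groups. The Acacb share of the pair was 96.8 ± 0.474% in SMF, 28.4 ± 6.50% in SC and 65.7 ± 4.20% in EC (exact permutation p = 0.00357, the smallest these groups allow, adjusted 0.0107). Acacb was thus the larger of the pair in SMF and EC. On the TPM table its share was 94.97% in SMF, 13.3% in SC and 47.1% in EC. SC also differed from EC, with Acacb lower in SC by a log2 of -1.09 ± 0.14 (limma adjusted p = 0.000764). Mlycd, which breaks malonyl-CoA down, had 4.53, 3.59 and 4.87 FPKM in SMF, 2.03 and 2.31 in SC and 1.66, 0.41 and 1.16 in EC, higher in SMF by 0.74 ± 0.27 and 1.40 ± 0.24 (log2). The call against SC was lost without SMF replicate 1 or 3, either SC library or EC replicate 3 (limma adjusted p between 0.0546 and 0.158).

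Each population led with another acyl-CoA synthetase. These enzymes activate long-chain fatty acids, and Acsl1 is the main form of muscle, heart and fat. Acsl1 had 8.06, 6.92 and 7.57 FPKM in SMF, 0.54 and 0.70 in SC and 2.28, 1.25 and 1.93 in EC, and its share of the 5 synthetases was 48.7 ± 2.99% in SMF, 2.93 ± 0.809% in SC and 7.04 ± 1.58% in EC (exact permutation p = 0.00714, adjusted 0.0143). Acsl5, the form known from intestine and liver, was listed at 0 in all SMF libraries and had 4.73 and 4.71 FPKM in SC and 16.4, 15.0 and 15.6 in EC, where it made up 61.1 ± 1.84% of the family. Acsl3, found at the endoplasmic reticulum and on droplets, had 2.39, 2.68 and 2.19 FPKM in SMF, 10.3 and 6.71 in SC and 1.84, 1.56 and 1.73 in EC. It was the largest share in SC replicate 1 (45.0%), whereas Acsl4 was in SC replicate 3 (36.8%). On the TPM table Acsl3 was the largest in both SC libraries (67.0% and 55.6%). SC exceeded EC in Acsl3 by a log2 of 1.79 ± 0.19 (limma adjusted p = 0.000238), and the lower level in SMF than in SC (-1.45 ± 0.19) was not called under median-of-ratios scaling (-0.16). Acsl6 had 2.05, 2.13 and 1.88 FPKM in SMF, 0.20 and 0.47 in SC and 0, 0 and 0.06 in EC. Acsl4, which favours arachidonic acid, had 3.73, 3.51 and 3.16 FPKM in SMF, 7.11 and 7.33 in SC and 7.01, 5.96 and 6.37 in EC, lower in SMF by -0.88 ± 0.14 and -0.74 ± 0.12 (log2) but higher by 0.46 and 0.45 under median-of-ratios scaling.

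Fibro-adipogenic progenitor markers, 10 genes summed, were at 40.2 to 105.1 FPKM in SMF, 471.6 and 462.7 in SC and 193.5 to 271.2 in EC. The SC sum was mostly Gsn (203.1 and 202.2), Col3a1 (107.9 and 113.2) and Dpt (103.4 and 95.5), and the EC sum mostly Ly6a and Cd34, which endothelium also makes. The receptor Pdgfra, which defines these cells, had 0.18 to 0.56 FPKM in SMF, 1.31 and 1.70 in SC and 0.22 to 2.57 in EC, and SC overlapped EC. Of the 9 tested markers 3 were higher and 2 lower in SC than in EC, and their part in the levels of genes highest in SC, such as Acsl3, was not tested. The deposited transcript table gave the same picture of Acsl1 from its 3893-base transcript ENSMUST00000034046, at 7.07, 14.4 and 15.0 FPKM in SMF, 0.82 and 0.82 in SC and 5.17, 2.51 and 3.50 in EC. Levels of different genes are compared here per length, and shares and rankings between genes depend on the length used. For 30 of the 49 genes the gene values corresponded to 1 fixed length in all libraries. That length could exceed the expressed transcript, as with 9371 bases for Acsl1. For 15 genes the values did not correspond to 1 length. The implied length of Ucp2 varied 6.89-fold and that of Lipe 3.21-fold. Those of Mlycd and Etfb went down to 0, where the listed transcripts held no level. The listed transcripts of Ucp3 also held no level in any SMF library.

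Thioesterases, which release free fatty acids from CoA, also differed. Acot13 had the highest level of all 49 genes in SMF, 78.8, 72.6 and 85.7 FPKM in SMF, 16.3 and 17.0 in SC and 9.06, 14.5 and 14.5 in EC, and was 4.74-fold above SC and 6.24-fold above EC (limma adjusted p = 8.19e-05 and 1.33e-05). Acot1, a cytosolic thioesterase, was listed at 0 in all SMF libraries, with 2.70 and 4.16 FPKM in SC and 0, 0.32 and 0 in EC. Acot2, its mitochondrial neighbour on chromosome 12, had 1.29 to 2.39 FPKM in SMF, 2.91 and 4.14 in SC and 1.60 to 4.37 in EC and was not called in any comparison. These 2 genes are nearly identical, and reads could have been split between them, so their separate values are uncertain.

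The enzymes of the beta oxidation spiral were broadly present and moderately higher in fibres. Their summed level was 136 ± 15.8 FPKM in SMF, 99.7 ± 5.91 in SC and 81.6 ± 7.77 in EC (SD, n = 3, 2 and 3). Of 13 genes, 7 were called higher and 0 lower in SMF than in SC, and 9 higher and 0 lower in SMF than in EC. These are 53.8% and 69.2% of the 13, where 8.57% and 10.8% of all tested genes were higher. With the 3 other scalings 11 to 13 and 12 to 13 were higher and 0 lower. Median-of-ratios scaling called 22.5% of all tested genes higher and 27.4% lower in SMF than in SC, and 24.9% and 31.8% than in EC. Of all tested genes, upper-quartile scaling called 15.5% higher and 40.1% lower in SMF than in SC, and 19.2% and 38.6% than in EC, and scaling without the most abundant genes called 15.6% and 35.1%, and 16.1% and 43.3%. The median log2 difference of the 13 was 0.57 for SMF minus SC and 0.77 for SMF minus EC.

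Acyl-CoA dehydrogenases open each round, and they are divided by chain length. Acadvl, for very long chains, had 13.2, 11.6 and 14.4 FPKM in SMF, 8.85 and 6.07 in SC and 3.51, 3.85 and 4.89 in EC, an order in which no group overlapped another. It was higher in SMF than in SC by a log2 of 0.75 ± 0.20 and than in EC by 1.47 ± 0.18 (limma adjusted p = 0.0120 and 0.000189), and the first call was lost without SC replicate 3 (0.0842). Acadm, for medium chains, had 14.1, 13.8 and 14.1 FPKM in SMF, 8.07 and 6.47 in SC and 6.50, 6.80 and 3.81 in EC. It was higher in SMF by 0.86 ± 0.23 than in SC and by 1.19 ± 0.20 than in EC, but neither call held on the TPM table (limma adjusted p = 0.134 and 0.0857), and that against SC was lost without SC replicate 3 (0.0813). Acadl, for long chains, had the highest FPKM of these dehydrogenases and was not called in any comparison without another scaling. It had 28.4, 24.2 and 37.7 FPKM in SMF, 25.4 and 35.4 in SC and 23.5, 23.1 and 24.4 in EC. The 95% interval of its log2 difference was -0.54 to 0.50 for SMF minus SC and -0.15 to 0.78 for SMF minus EC. The 3 other scalings called it higher in SMF than in SC by 0.89 to 1.53 and than in EC by 0.98 to 1.70. On the TPM table Acadm had the higher mean in SMF, 23.8 against 20.8 TPM for Acadl. Acads, for short chains, had 2.30 to 3.69 FPKM in SMF, 3.55 and 2.57 in SC and 0.51 to 2.09 in EC, and its call above EC (limma adjusted p = 0.0407) was lost when any of the libraries but EC replicate 3 was left out (0.0555 to 0.130). Its difference from SC was -0.08, not called, and a called 1.12 under median-of-ratios scaling. Acadsb, for branched short chains, had 6.51 to 7.60 FPKM in SMF and 6.61 and 7.11 in SC, against 4.28 to 5.06 in EC.

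Hadha and Hadhb encode the subunits of the mitochondrial trifunctional protein, which carries out the later steps for long chains. The genes lie back to back on chromosome 5 (Hadha chr5:30119423-30154980, Hadhb chr5:30155253-30184593) with 272 bases between their annotated starts, most of which are the Hadha promoter printed above. Hadha had 13.2, 11.9 and 15.5 FPKM in SMF, 8.20 and 9.25 in SC and 8.68, 6.51 and 9.99 in EC, with SMF above both. Hadhb had 3.01, 3.16 and 3.83 FPKM in SMF, 1.15 and 1.63 in SC and 2.66, 1.80 and 3.08 in EC, so that EC replicate 3 overlapped SMF. Hadha was called higher in SMF than in SC (log2 0.57 ± 0.20) and than in EC (0.64 ± 0.18), and Hadhb than in SC (0.86 ± 0.20) but not than in EC (0.32 ± 0.18, 95% interval -0.11 to 0.74), although the 3 other scalings called it higher than in EC by 0.86 to 1.42. The Hadha calls were not stable. That against SC was lost without SMF replicate 1 or 3, either SC library or EC replicate 1 (limma adjusted p between 0.0515 and 0.142), that against EC without SMF replicate 3 (0.0521), and both on the TPM table (0.665 and 0.171), while Hadhb against SC was lost without SC replicate 1 (0.0507).

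Among the other spiral enzymes, Hadh, the short-chain hydroxyacyl-CoA dehydrogenase, had 8.51, 7.91 and 7.72 FPKM in SMF, 4.85 and 5.27 in SC and 3.04, 2.91 and 3.43 in EC, again without overlap. Its log2 difference was 0.58 ± 0.13 from SC and 1.13 ± 0.12 from EC (limma adjusted p = 0.00613 and 8.47e-05), and SC exceeded EC by 0.56 ± 0.13. The call against SC was lost on the TPM table (limma adjusted p = 0.0639). That of SC above EC was lost there, under median-of-ratios scaling, without the most abundant genes, with only the groups compared and with a replicate block (0.0516 to 0.300). Eci1, an isomerase needed for unsaturated fatty acids, had 13.5, 11.4 and 17.5 FPKM in SMF, 9.13 and 9.08 in SC and 4.05, 2.94 and 5.97 in EC. It was called above EC in both SMF (1.53 ± 0.24) and SC (0.97 ± 0.27), and the call of SC above EC was lost without either SC library or EC replicate 1 (limma adjusted p between 0.0574 and 0.103). Eci2, the isomerase shared by mitochondria and peroxisomes, had 3.32 to 4.36 FPKM in SMF, 3.69 and 6.99 in SC and 3.27 to 5.05 in EC and was not called, but was higher in SMF by 0.98 and 1.06 under median-of-ratios scaling. Decr1, the dienoyl-CoA reductase, had 5.52 to 6.55 FPKM in SMF, 3.93 and 2.67 in SC and 2.56 to 2.81 in EC. Echs1, the short-chain hydratase, had 2.90 to 4.14 FPKM in SMF, 2.58 and 3.05 in SC and 0.82 to 1.24 in EC, with SMF and SC each called above EC (1.16 ± 0.16 and 0.91 ± 0.18). Acaa2, the thiolase of the spiral, had 16.4, 15.0 and 18.2 FPKM in SMF, 9.52 and 8.33 in SC and 18.9, 12.0 and 16.9 in EC. SMF exceeded SC by 0.82 ± 0.21 and differed from EC by 0.07 ± 0.19 (95% interval -0.36 to 0.50), although the 3 other scalings called it higher in SMF than in EC by 0.73 to 1.42. The call against SC was lost without SC replicate 3 (limma adjusted p = 0.0597).

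**Figure D3:**
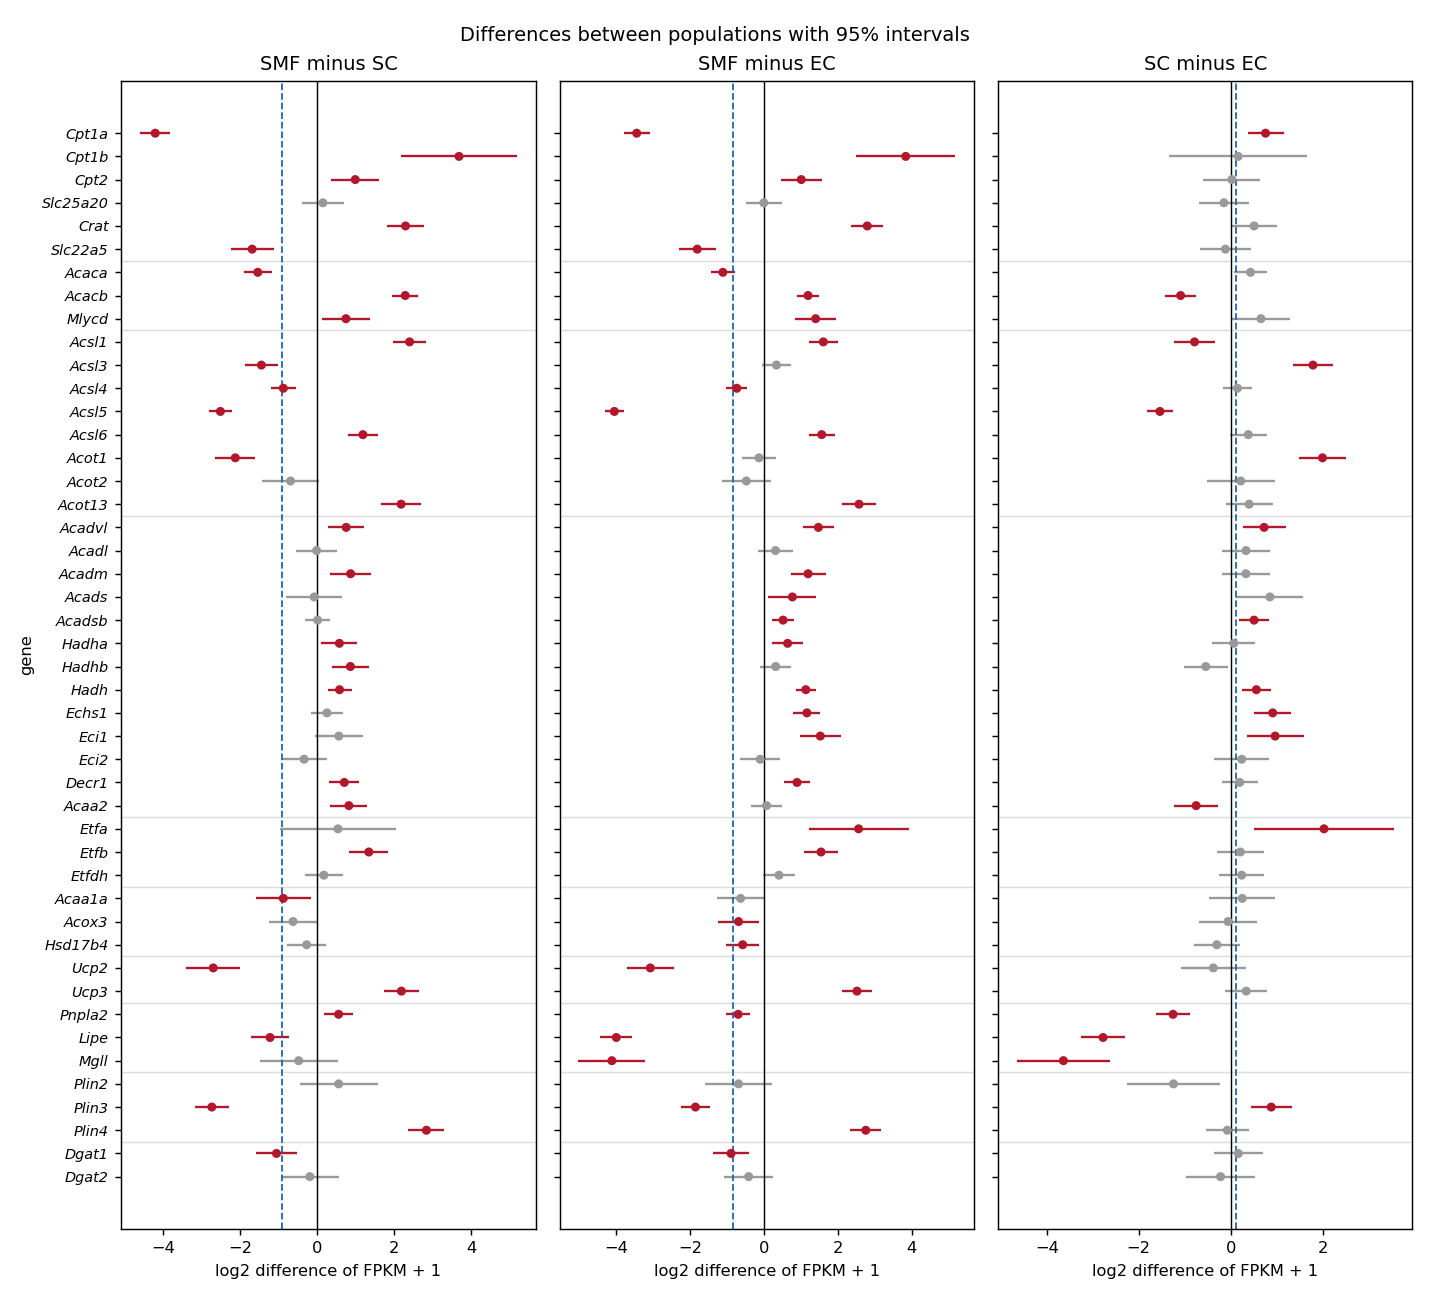
Log2 differences of FPKM + 1 with 95% intervals for the 46 tested genes, SMF minus SC, SMF minus EC and SC minus EC from left to right, in red where limma called them and in grey where it did not. The dashed line is the median of all 16700 tested genes, at -0.93, -0.85 and 0.11, and most spiral genes lie to the right of it in the SMF panels.

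The electron transfer flavoprotein takes the electrons of the dehydrogenases. Of its 2 subunits and the oxidoreductase after them, 1 of 3 was called higher in SMF than in SC and 2 of 3 than in EC. Of all tested genes 8.57% and 10.8% were higher, and 3 genes are too few to set against these shares. Etfb, the beta subunit of the flavoprotein, had 40.7, 36.2 and 45.4 FPKM in SMF, 12.9 and 18.5 in SC and 13.5, 10.9 and 15.7 in EC, 2.60-fold above SC and 3.05-fold above EC (limma adjusted p = 0.00104 and 0.000230). Etfa, the alpha subunit, had 15.9, 14.4 and 19.3 FPKM in SMF, 10.6 and 11.5 in SC and 4.04 and 4.07 in EC replicates 1 and 3, but was listed at 0 in EC replicate 2. Its difference between SMF and SC was 0.54 and not called (limma adjusted p = 0.489), but was called without EC replicate 2 (0.0194), under median-of-ratios scaling (0.016) and with only the groups compared (0.03205). A gene used by nearly all cells at exactly 0 may be a failed estimate, and its call of SC above EC (limma adjusted p = 0.0423) was lost without either SC library or any SMF library (0.0651 to 0.176). Etfdh, which hands the electrons to ubiquinone, had 4.23 to 4.93 FPKM in SMF, 3.15 and 4.88 in SC and 2.45 to 3.73 in EC and was not called in any comparison, though the 3 other scalings called it higher in SMF by 0.94 to 1.57. The 3 tested peroxisomal genes of the module were not called higher in SMF without another scaling. Hsd17b4, the bifunctional enzyme, had 4.40 to 6.10 FPKM in SMF, 5.49 and 7.21 in SC and 6.30 to 9.51 in EC, lower in SMF than in EC by -0.58 ± 0.19 but higher by 0.67 under median-of-ratios scaling, and the call was lost without SMF replicate 1 or 2 or EC replicate 1 or 3 (limma adjusted p between 0.0803 and 0.0956). Between SMF and SC Hsd17b4 was not called. It was called higher in SMF than in SC by 1.10 under median-of-ratios scaling and by 0.62 without the most abundant genes, but lower by -0.80 on the TPM table. Acaa1a, a peroxisomal thiolase, had 0.33 to 0.59 FPKM in SMF, 0.86 and 2.85 in SC and 0.89 to 1.46 in EC. Acox3, an oxidase of branched chains, had 0.48 to 0.59 FPKM in SMF, 1.23 and 1.48 in SC and 0.88 to 2.57 in EC. Acaa1a was called lower in SMF than in SC and Acox3 than in EC, and each call was lost without any 1 SMF library (limma adjusted p between 0.0585 and 0.0906) and under each of the 3 other scalings. Acaa1a was also lost without SC replicate 3 (0.210), and Acox3 without either SC library or EC replicate 3 (0.0545 to 0.0563). Ehhadh stayed at or under 1.15 FPKM in every library.

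Ucp3 and Ucp2 sit next to each other on chromosome 7 with 6904 bases between them (Ucp3 chr7:100472991-100486432, Ucp2 chr7:100493337-100499629), and their levels were opposite. Ucp3, the uncoupling protein of muscle and brown fat that is known to follow fatty acid supply, had 5.47, 4.69 and 4.66 FPKM in SMF, 0.08 and 0.57 in SC and 0, 0 and 0.11 in EC. Ucp2, found in immune, endothelial and many other cells, had 0.05, 0.13 and 0.08 FPKM in SMF, 5.22 and 7.05 in SC and 9.81, 4.90 and 11.2 in EC. No SMF library overlapped another group in either gene. Ucp3 was higher in SMF than in SC by a log2 of 2.18 ± 0.20 and than in EC by 2.52 ± 0.18 (limma adjusted p = 4.59e-05 and 8.06e-06). It passed the filter only through SMF, so these calls partly follow from the filter. Ucp2 was lower in SMF by -2.70 ± 0.30 and -3.08 ± 0.27 (0.000146 and 3.04e-05). The Ucp3 share of the pair was 98.2 ± 0.955% in SMF, 4.54 ± 4.18% in SC and 0.312 ± 0.541% in EC (exact permutation p = 0.00357, adjusted 0.0107). On the TPM table this share was 95.4 to 98.8% in the SMF libraries, at most 4.21% in SC and at most 0.47% in EC. The listed transcripts did not show the switch, since those of Ucp3 held no level in SMF. ENSMUST00000128044 had 0 FPKM in every SMF library, 0.12 and 0 in SC and 0, 0 and 0.16 in EC. Both promoters printed above hold a CAGCTG. EC replicate 2 had the lowest Ucp2 of the EC libraries, and without it SC was called below EC (log2 -0.70, limma adjusted p = 0.0193). Immune cell markers, 8 genes summed, were at 1.49 to 4.76 FPKM in SMF, 27.6 and 33.4 in SC and 57.2, 14.1 and 79.7 in EC, the same order of libraries within EC, and the part of such cells in Ucp2 was not tested. Ptprc, their common marker, stayed at or under 0.03 FPKM in SMF, 0.43 in SC and 1.07 in EC.

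Lipolysis genes set the endothelium apart. Triglyceride is opened by Pnpla2 (adipose triglyceride lipase), continued by Lipe (hormone-sensitive lipase) and finished by Mgll (monoacylglycerol lipase), and the summed level of the 3 was 14.8 ± 1.35 FPKM in SMF, 12.3 ± 1.75 in SC and 67.7 ± 10.5 in EC (SD, n = 3, 2 and 3). Lipe (chr7:25379527-25398486) had 0.21, 0.34 and 0.21 FPKM in SMF, 1.44 and 2.52 in SC and 22.7, 16.3 and 18.7 in EC. Mgll (chr6:88724412-88828360) had 0.05, 0.90 and 0.44 FPKM in SMF, 0.36 and 1.92 in SC and 16.7, 21.8 and 36.7 in EC. EC stood above all other libraries in both genes. Lipe was 75.8-fold lower in SMF and 9.72-fold lower in SC than in EC (log2 -4.00 ± 0.19 and -2.78 ± 0.21; limma adjusted p = 1.01e-06 and 4.02e-05). Mgll was lower in SMF and in SC than in EC by a log2 of -4.12 ± 0.39 and -3.64 ± 0.44 (limma adjusted p = 4.4e-05 and 0.000475). Pnpla2 differed less, with 15.3, 12.0 and 14.9 FPKM in SMF, 9.29 and 9.13 in SC and 21.4, 24.4 and 24.4 in EC. It was lower in SMF than in EC by -0.70 ± 0.14 but higher by 0.66 under median-of-ratios scaling, and its call of SMF above SC (0.55 ± 0.16) was lost without SC replicate 3 (limma adjusted p = 0.0518) and on the TPM table (0.0709).

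Hormone-sensitive lipase is best known from fat cells, so adipocyte markers are given beside it. Adipoq, Plin1, Cidec, Lep and Retn were listed at 0 in every SMF library, reached at most 0.90 FPKM in SC, and in EC were at 0 in replicate 2, at 0 except for Retn (0.33) in replicate 1 and at most 0.94 in replicate 3. Lipe was at 22.7, 16.3 and 18.7 FPKM in EC replicates 1 to 3, and the part of fat cells in these levels was not tested. Fabp4, also an endothelial gene, was at 396.2 to 504.4 FPKM in EC. Pericyte and smooth muscle markers, 8 genes summed, were at 28.8 to 29.9 FPKM in SMF, 217.5 and 273.2 in SC and 580.1, 226.5 and 698.0 in EC. Of the lipases, Lipe was lowest in EC replicate 2, as these markers were, and Mgll was not, and the part of such cells was not tested. The listed transcripts of Lipe differed between the populations. ENSMUST00000206861 (3171 bases) had 0, 0 and 0.32 FPKM in SMF, 0.44 and 0 in SC and 21.1, 6.25 and 14.9 in EC, whereas ENSMUST00000149349 (3713 bases) had 0.21, 0.36 and 0 in SMF, 1.37 and 2.38 in SC and 0 in all EC libraries.

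The mix of perilipins differed between the populations, and which of them led depended on the table. Plin4 (chr17:56100587-56109948), a coat protein of nascent droplets, had 11.7, 14.5 and 13.2 FPKM in SMF, 1.05 and 0.90 in SC and 1.54, 1.12 and 0.67 in EC. It was 13.4-fold above SC and 11.8-fold above EC (log2 2.83 ± 0.20 and 2.76 ± 0.18; limma adjusted p = 1.64e-05 and 5.88e-06) and made up 73.3 ± 3.91% of the 4 perilipins in SMF. On the TPM table its share was 44.2%, below the 52.9% of Plin2. Plin3 (chr17:56278962-56290511), which moves between cytosol and droplets, had 0.74, 0.32 and 0.52 FPKM in SMF, 9.04 and 9.19 in SC and 5.52, 4.48 and 3.64 in EC, with 73.4 ± 3.78% of the family in SC (58.6% on the TPM table). No groups overlapped in Plin3, which was lower in SMF by -2.74 ± 0.19 than in SC and by -1.86 ± 0.17 than in EC. SC exceeded EC in Plin3 by 0.88 ± 0.19 (limma adjusted p = 0.00867), a call that ended under median-of-ratios scaling, without the most abundant genes and with a pseudocount of 0.1 (0.0511 to 0.0810). Plin5 (chr17:56111597-56117606), the perilipin that ties droplets to mitochondria in oxidative muscle and heart, had 0.65, 0.34 and 0 FPKM in SMF, 0 and 0 in SC and 0, 0.81 and 0 in EC. It lies 1648 bases from Plin4, and none of its values exceeded a few fragments per kilobase.

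Plin2, the general coat protein of droplets, had 3.89, 3.88 and 3.89 FPKM in SMF, 2.69 and 1.99 in SC and 11.6, 2.96 and 8.77 in EC. No comparison was called in the 8 libraries, with 95% intervals of -0.45 to 1.57 for SMF minus SC and -1.59 to 0.21 for SMF minus EC. Without EC replicate 2, Plin2 was called lower in SMF than in EC (log2 -1.19, limma adjusted p = 0.000846), lower in SC than in EC (-1.74, 0.000581) and higher in SMF than in SC (0.56, 0.0225). The last was also called on the TPM table and under the 3 other scalings, and SC below EC was also called with all EC libraries under median-of-ratios scaling, without the most abundant genes, with a filter of 5 FPKM, on the TPM table and with a replicate block (0.0130 to 0.0456). Its share of the family was 21.8 ± 1.33% in SMF, 18.8 ± 3.22% in SC and 53.6 ± 19.2% in EC (exact permutation p = 0.0464, adjusted 0.0557). In EC replicate 2 its share was 31.6%, below the 47.7% of Plin3. The adjusted exact p was 0.0107 on the TPM table, 0.0171 without SC replicate 1, 0.0343 without any 1 EC library and 0.105 to 0.137 without any 1 SMF library. The transcripts behind these levels differed. A 588-base transcript, ENSMUST00000154999, had 12.1, 9.96 and 14.2 FPKM in SMF, 4.18 and 0 in SC and 0, 2.43 and 0 in EC, while the 1888-base transcript ENSMUST00000000466 had 3.30, 3.68 and 2.73 in SMF, 3.65 and 3.67 in SC and 17.6, 2.94 and 15.3 in EC.

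**Figure D4:**
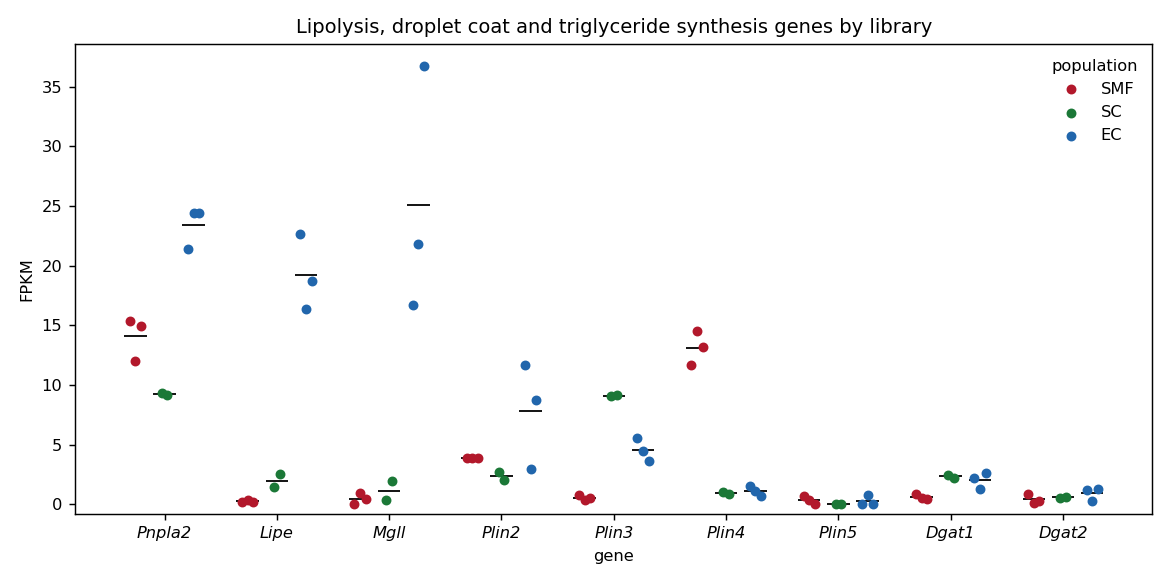
FPKM of lipolysis, droplet coat and triglyceride synthesis genes, one point for each library and a bar at the group mean, for SMF (n = 3), SC (n = 2) and EC (n = 3). Lipe and Mgll are high in EC, Plin4 in SMF and Plin3 in SC, and the low EC point of Plin2 is replicate 2 at 2.96 FPKM.

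The enzymes of the last step of triglyceride synthesis were at low levels. Dgat1 had 0.88, 0.55 and 0.40 FPKM in SMF, 2.47 and 2.19 in SC and 2.21, 1.27 and 2.59 in EC, and was called lower in SMF than in SC (log2 -1.06 ± 0.23) and EC (-0.89 ± 0.21), but in neither under median-of-ratios or upper-quartile scaling. Dgat2 had 0.84, 0.14 and 0.30 FPKM in SMF, 0.56 and 0.64 in SC and 1.23, 0.27 and 1.28 in EC and was not called. The Dgat2 share of the pair was 37.2% in SMF, 20.5% in SC and 28.7% in EC on average (exact permutation p = 0.339).

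Other lipid genes, in 6 lists from which genes are named by their mean level, placed the module in its pathway. Of 26 tested genes of fatty acid synthesis and desaturation, 4 were higher and 21 lower in SMF than in SC, and 4 higher and 19 lower than in EC. That is 15.4% higher in both, against 8.57% and 10.8% of all tested genes. Lower were 80.8% and 73.1%, against 56.5% and 55.5%. Under median-of-ratios scaling 5 were higher and 15 lower than in SC, and 6 and 13 than in EC. All tested genes then had 22.5% higher and 27.4% lower than in SC, and 24.9% and 31.8% than in EC. Malic enzyme Me1, a source of NADPH, was among the 4 and had 33.2, 32.9 and 34.4 FPKM in SMF, 0.77 and 0.75 in SC and 0.26, 0.58 and 0.59 in EC. Me1 passed the filter only through SMF, so its calls partly follow from the filter. Tecr, the last reductase of elongation, was also higher in SMF, at 36.2 to 37.0 FPKM against 9.05 and 1.83 in SC and 0 to 5.45 in EC, though not against SC without SC replicate 3 (limma adjusted p = 0.143). The elongase Elovl5 had 0.19, 0.39 and 0.53 FPKM in SMF, 4.85 and 5.96 in SC and 41.8, 42.7 and 46.6 in EC. The desaturase Scd2 had 1.27 to 1.47 FPKM in SMF, 20.4 and 22.4 in SC and 14.4 to 18.9 in EC.

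Of 26 other lipid droplet and triglyceride genes, 6 were higher and 16 lower in SMF than in SC, and 6 higher and 15 lower than in EC. That is 23.1% higher in both comparisons, against 8.57% and 10.8% of all tested genes, and 61.5% and 57.7% lower, against 56.5% and 55.5%. Some differences among the most abundant were large. Fitm1, which helps droplets form and is known from muscle, had 34.9, 32.6 and 35.8 FPKM in SMF and 5.37 and 6.48 in SC, and EC libraries were all at 0. Gpam, the first acyltransferase of glycerolipid synthesis in mitochondria, had 22.1, 23.1 and 25.8 FPKM in SMF, 4.51 and 7.66 in SC and 1.91, 1.15 and 1.22 in EC. Lpin1, a phosphatidate phosphatase that also acts with PGC-1alpha, had 34.8, 35.9 and 37.2 FPKM in SMF, 2.56 and 1.38 in SC and 2.09, 1.87 and 2.62 in EC. Under median-of-ratios scaling 10 of the 26 were higher and 7 lower in SMF than in SC, and 11 and 6 than in EC. All tested genes then had 22.5% higher and 27.4% lower than in SC, and 24.9% and 31.8% than in EC. Rab18, a droplet GTPase, had 13.5 to 16.1 FPKM in SMF, 30.9 and 28.7 in SC and 21.3 to 24.5 in EC, lower in SMF by -0.95 and -0.56 but higher by 0.58 and 0.80 under median-of-ratios scaling. The protein partners of Pnpla2, named after their values were seen, were its activator Abhd5, at 1.73 to 3.71 FPKM in SMF, 4.67 and 4.28 in SC and 4.93 to 5.90 in EC, and its inhibitor G0s2, at 3.25 to 4.89 in SMF, 14.0 and 18.1 in SC and 0.62 to 7.86 in EC.

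Of 24 other mitochondrial oxidation and ketone body enzymes, 5 were higher and 7 lower in SMF than in SC, and 11 higher and 4 lower than in EC. That is 20.8% and 45.8% higher, against 8.57% and 10.8% of all tested genes, and 29.2% and 16.7% lower, against 56.5% and 55.5%. Under median-of-ratios scaling 16 were higher and 1 lower than in SC, and 17 and 3 than in EC, where all tested genes had 22.5% and 27.4%, and 24.9% and 31.8%. Oxct1, which lets tissues burn ketone bodies, had 31.8, 32.5 and 30.7 FPKM in SMF, 16.2 and 17.5 in SC and 8.14, 10.1 and 9.84 in EC, with all 3 comparisons called and no overlap. Acat1, the thiolase beside it, had 13.4 to 14.1 FPKM in SMF, 10.2 and 10.3 in SC and 3.94 to 6.45 in EC. Dbi and Hsd17b10, an acyl-CoA binding protein and a dehydrogenase, were lower in SMF than in SC by -0.53 and -0.69 but higher by 0.99 and 0.77 under median-of-ratios scaling. Of 16 other peroxisomal genes, 4 were higher and 4 lower in SMF than in SC, and 4 higher and 5 lower than in EC. That is 25% higher in both and 25% and 31.2% lower, beside the same shares of all tested genes as for the list before. Under median-of-ratios scaling 11 were higher and 0 lower than in SC, and 11 and 1 than in EC. Phyh, which starts the breakdown of phytanic acid, had 33.8, 25.8 and 28.2 FPKM in SMF, 4.06 and 7.13 in SC and 3.99, 3.74 and 4.59 in EC. Scp2, a thiolase and sterol carrier, was higher in SMF than in SC by a log2 of 0.74, while catalase (Cat) was lower in SMF by -0.60 and -0.65 but higher by 0.88 and 0.68 under median-of-ratios scaling.

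Among 17 tested regulators of these genes, 6 were higher and 5 lower in SMF than in SC, and 7 higher and 5 lower than in EC. That is 35.3% and 41.2% higher, against 8.57% and 10.8% of all tested genes, and 29.4% lower in both, against 56.5% and 55.5%. Under median-of-ratios scaling 11 were higher and 1 lower than in SC, and 11 and 3 than in EC, where 22.5% and 24.9% of all tested genes were higher. Pdk4, which spares glucose when fat is burned, had 59.0, 33.5 and 37.9 FPKM in SMF, 48.3 and 51.7 in SC and 4.79, 3.87 and 4.38 in EC, so that fibres and satellite cells overlapped and both were above the endothelium. Its difference between SMF and SC was -0.24 and not called, and a called 1.33 under median-of-ratios scaling. Angptl4, a PPAR target that inhibits lipoprotein lipase, had 0.63, 0.57 and 0.43 FPKM in SMF, 14.4 and 15.7 in SC and 21.6, 6.30 and 19.0 in EC. The corepressor Ncor1 had 7.39 to 9.05 FPKM in SMF, 20.4 and 19.6 in SC and 22.8 to 24.2 in EC, lower in SMF than in SC by -1.23, but 0.25 and not called (limma adjusted p = 0.218) under median-of-ratios scaling. Some regulators were named after their values were seen. Ppargc1a, the coactivator PGC-1alpha, had 6.04, 5.41 and 5.86 FPKM in SMF, 1.25 and 1.10 in SC and 0.51, 0.10 and 0.22 in EC. Pparg, the receptor of fat storage, had 0, 0 and 0.10 FPKM in SMF, 0.50 and 0.31 in SC and 15.4, 11.6 and 18.6 in EC. Prkaa2, the muscle catalytic subunit of AMPK, which inhibits the carboxylases, had 18.3, 19.1 and 16.6 FPKM in SMF, 0.51 and 1.00 in SC and 0.51, 0.14 and 0.25 in EC.

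Of 13 tested genes of fatty acid uptake, 1 was higher and 9 lower in SMF than in SC, 2 higher and 10 lower in SMF than in EC, and 3 higher and 7 lower in SC than in EC. The shares lower in SMF were 69.2% and 76.9%, against 56.5% and 55.5% of all tested genes, and 53.8% were lower in SC than in EC, against 16.4%. Under median-of-ratios scaling 3 were higher and 3 lower in SMF than in SC, and 2 and 7 in SMF than in EC, where 27.4% and 31.8% of all tested genes were lower. The carriers Cd36 and Fabp4, lipoprotein lipase (Lpl) and its anchor Gpihbp1 were each lower in SMF than in EC, by log2 values of -7.11, -7.92, -3.56 and -6.31 in that order, with no overlap. Gpihbp1 had at most 0.07 FPKM in SMF and 0.55 in SC, against 70.5 to 87.2 in EC. It passed the filter only through EC, so its call partly follows from the filter. Cd36 was not called between SMF and SC (log2 -0.09), but was called higher in SMF by 1.10 under median-of-ratios scaling and by 0.67 without SC replicate 1, and lower by -0.84 without SC replicate 3. Fabp3, the fatty acid binding protein of heart and muscle, named after its values were seen, had 48.0, 62.5 and 71.6 FPKM in SMF, 0 and 5.01 in SC, and 0 in every EC library.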

How the data were processed

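RNA of 8 mouse muscle libraries was sequenced as 50 bp pairs with 20 M reads expected each, from 10 ng of total RNA with a stranded, random-primed kit that removes ribosomal sequences, per the labels' protocols. The labels state that 1 sample, not named, missed the RNA quality of the others. The submitters' processing notes name HISAT2, StringTie, Trimmomatic, FastQC and bedtools, and mm10 as the build. Their versions, their settings and the use of strand are not stated in those sources. The deposited gene table holds FPKM for 36048 genes, per the file headers. Another deposited table holds TPM for 46435 loci, and a transcript table holds FPKM and read coverage (a signal) for 89871 transcripts. No column of per-sample values was left unmapped.

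Transcript coverage divided by FPKM gave the aligned bases of each library, and fragments were counted as 100 bases. These figures cover counting error only. Genes with at least 1 FPKM in at least 2 libraries were tested with limma 3.58.1 (R 4.3.3, trend) on log2(FPKM + 1), 8 libraries with 1 mean for each population and no covariate, two-sided, with Benjamini-Hochberg adjustment over 16700 genes at 0.05. FPKM are not counts, so no count model was used. Differences on this scale understate changes of low genes. No fold is given where a group is listed at 0 throughout. Isoenzyme shares of summed FPKM were compared by exact permutation over all 560 assignments, with p adjusted over 6 families. The script was tested on simulated data.

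All 49 members are named. From 6 other lists (156 listed genes, 146 in the table) the 4 tested genes with the highest mean of the group means are named, except 1 gene that is not reported here, and others were chosen after their values were seen. Members and lists were chosen with earlier results of these data known. For 30 members the listed transcripts and the gene value implied 1 length within 1% in all libraries, for 15 they did not, and for 4 it could not be computed. Gene positions, promoters and motifs are from RefSeq tables of GRCm38.p6. Alternatives were 3 other scalings (median of ratios, upper quartile, totals that leave out each group's 50 most abundant genes), a pseudocount of 0.1, no filter, a filter of 5 FPKM, the TPM table, only the groups compared, a replicate block, and leaving out each library.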

Additional observations from a re-analysis of the deposited data

How the results depend on the processing

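Members called higher in SMF than in SC numbered 19, and 31 with median-of-ratios scaling. Members lower in SMF than in SC were 12, and 7 with a filter of 5 FPKM, which leaves fewer genes to test. Members lower in SMF than in EC were 13, and 8 with median-of-ratios and 8 with upper-quartile scaling. Members higher in SC than in EC were 10, but 6 with median-of-ratios scaling, 3 when the most abundant genes were left out, 5 with only the groups compared, and 6 to 12 when single libraries were left out. Over all genes, those higher in SMF than in SC were 3752 with median-of-ratios scaling, 2582 with upper-quartile scaling and 2611 without the most abundant genes, and those lower were 4569 with median-of-ratios scaling, 5863 without the abundant genes and 5099 with the stricter filter. Genes higher in SMF than in EC were 4160 with median-of-ratios and 3202 with upper-quartile scaling, and those lower were 5307 with median-of-ratios scaling and 5014 with the stricter filter. Genes higher in SC than in EC were 2100 without the abundant genes and 2274 with the stricter filter, where 1815 were lower. Of the calls 16 of 31, 25 of 34 and 8 of 17 members (SMF minus SC, SMF minus EC, SC minus EC) held in all alternatives. Leaving out single libraries moved the SMF minus EC difference of the Cpt1b share between 97.1 and 98.35 points (adjusted exact p between 0.0171 and 0.1), while the TPM table gave 68.97, and that of the Plin2 share between -42.83 and -25.11, where the TPM table gave -19.72 (adjusted exact p 0.0107).

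Directions turned under a scaling as follows (log2). Median-of-ratios scaling gave, for SMF minus SC, Acsl4 0.46, Acadl 1.53, Acads 1.12, Eci2 0.98, Hsd17b4 1.10, Pdk4 1.33, Ncor1 0.25, Dbi 0.99, Hsd17b10 0.77, Cat 0.88, Rab18 0.58 and Cd36 1.10, and for SMF minus EC, Slc25a20 0.98, Acsl4 0.45, Eci2 1.06, Hsd17b4 0.67, Pnpla2 0.66, Cat 0.68 and Rab18 0.80. Upper-quartile scaling gave, for SMF minus SC, Acadl 0.89, Pdk4 0.68, Dbi 0.36, Hsd17b10 0.16 and Cat 0.27, and for SMF minus EC, Slc25a20 0.65, Acsl4 0.0646, Eci2 0.68, Hsd17b4 0.26, Pnpla2 0.22, Cat 0.25 and Rab18 0.37. Without the abundant genes, SMF minus SC was Acadl 1.00, Hsd17b4 0.62, Pdk4 0.79, Dbi 0.47, Hsd17b10 0.27, Cat 0.37 and Rab18 0.0615, and SMF minus EC was Hsd17b4 0.0196 and Rab18 0.10. Cd36 in SMF minus SC was 0.67 without SC replicate 1 and -0.84 without SC replicate 3.

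Replicate numbers gave no sign of pairing the samples, since deviations of same-numbered libraries correlated between -0.058 and 0.091. With a replicate block, 20 members were higher and 12 lower in SMF than in SC, 21 and 14 in SMF than in EC, and 6 and 9 in SC than in EC. The shares of all tested genes with this block are not given here, so these counts cannot be set against them.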
